A study of Mus with 6 samples.

Results

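The genes described here make, sense and move cholesterol. They were 29 genes chosen by name from the 10995 genes listed, namely 19 enzymes ordered by pathway step, 4 genes that sense sterol, and 6 genes of uptake, transport and efflux. All 29 were found, each in 1 row. The RNA came from wild-type mouse CD4+ T cells of the spleen, isolated naive and activated over 3 days by 5 μg/mL anti-CD3 and 2 μg/mL anti-CD28 in medium with 100 U/mL of IL-2. All cultures received these stimuli. The 3 anti–VEGF-B libraries received in addition a neutralizing antibody to the growth factor VEGF-B and the 3 IgG libraries normal goat IgG, each at 1 μg/mL. No unstimulated culture was part of the comparison, so each value describes activated T cells with and without the antibody to VEGF-B. Mouse age was not given, and no source used here says whether replicates came from separate mice or cultures, so a p value measures the spread between these libraries, which may be technical.

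Cholesterol is built from acetyl-CoA. The mevalonate steps give isoprenoid units, farnesyl diphosphate is joined to squalene, and squalene is closed into lanosterol and trimmed to cholesterol. The pathway is set by sterol in the endoplasmic reticulum. When sterol is low, SCAP escorts SREBP-2 to the Golgi, where it is cut and turns on genes of synthesis, while INSIG proteins hold it back when sterol is plentiful. Surplus cholesterol, sensed as oxysterols by LXR receptors, is exported by ABCA1 and ABCG1. T cells are known to raise sterol synthesis when they begin to divide.

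Expression was given as FPKM (fragments scaled to transcript length and to the size of the library), a scale on which levels of different genes can be set side by side. Fold changes below are differences in log2(FPKM + 1) of anti–VEGF-B minus IgG, which understate changes of low genes. The limma test covered the 8816 genes that averaged 1 FPKM or more over the 6 libraries, p values were adjusted over all of them by Benjamini-Hochberg, and those under 0.05 count as calls. Of the 29 genes, 27 reached this average, and Tm7sf2 and Dhcr7 did not. The number of reads behind the values is unknown. All 10 T cell markers were listed, with Cd4 between 64.0 and 74.6 FPKM in all libraries. Cd3d had 101 to 119 FPKM with anti–VEGF-B against 100 to 106 with IgG, and Cd3e 9.60 to 12.9 against 14.3 to 18.6. Of these 10 markers, Cd3e, Cd5 and Il2ra were called lower, and the others were not called. The B cell, dendritic cell, NK cell and red cell lists had at most 1 gene in the table, none above 1.34 FPKM. The 2 CD8 T cell markers were in the table, with Cd8a at 0.182 FPKM or less. Cd8b1 had 3.32 to 4.51 FPKM with anti–VEGF-B against 2.27 to 4.15 with IgG. Of 8 macrophage and monocyte markers 5 were listed, with a summed level of 11.6 to 12.9 FPKM with anti–VEGF-B and 13.2 to 29.0 with IgG, and Lyz2 stood at 16.4 FPKM in IgG replicate 3 against 3.26 to 4.19 in the other libraries. The part of such cells in the results below was not tested. IgG replicate 2 stood apart in another way, with the highest value of the 6 libraries for 50.9% of all genes tested and for 16 of the 27 cholesterol genes (59.3%). The median gene lay at -0.15, and other scalings between libraries moved this to between -0.096 and 0.038.

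With anti–VEGF-B, 11 of the 27 cholesterol genes were lower and 0 were higher. The falls were deepest for Cyp51, Hmgcs1, Insig1 and Idi1, whose mean FPKM with IgG was between 2.36 and 3.42 times that with anti–VEGF-B. The 11 genes were 40.7% of those tested, where 23.8% of all genes were called lower and 4.87% higher. The list was chosen with earlier results of these data known, so these shares are a description and no test. Without anti–VEGF-B replicate 3, 7 members and 7.92% of all genes were lower, and without IgG replicate 2, 8 members and 12.3%. A log2 fold change below 0 was found for 18 of the 27, where it was found for 71.2% of all genes. The called genes were 7 of 17 tested enzymes, 1 of 4 sensing genes and 3 of 6 genes of uptake, transport and efflux. At an unadjusted p under 0.05 in limma, 13 members were lower and 2 higher, against 35.2% and 7.96% of all genes. Every anti–VEGF-B value lay under every IgG value for 11 members (40.7%), close to the 38.5% of all genes, and over every IgG value for 4 members (14.8%), where the share of all genes was 10.5%. Separation of the groups is therefore no result about these genes. The smallest p that an exact permutation test of 3 against 3 libraries can give is 0.1, so single genes were judged by limma alone.

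**Figure D1:**
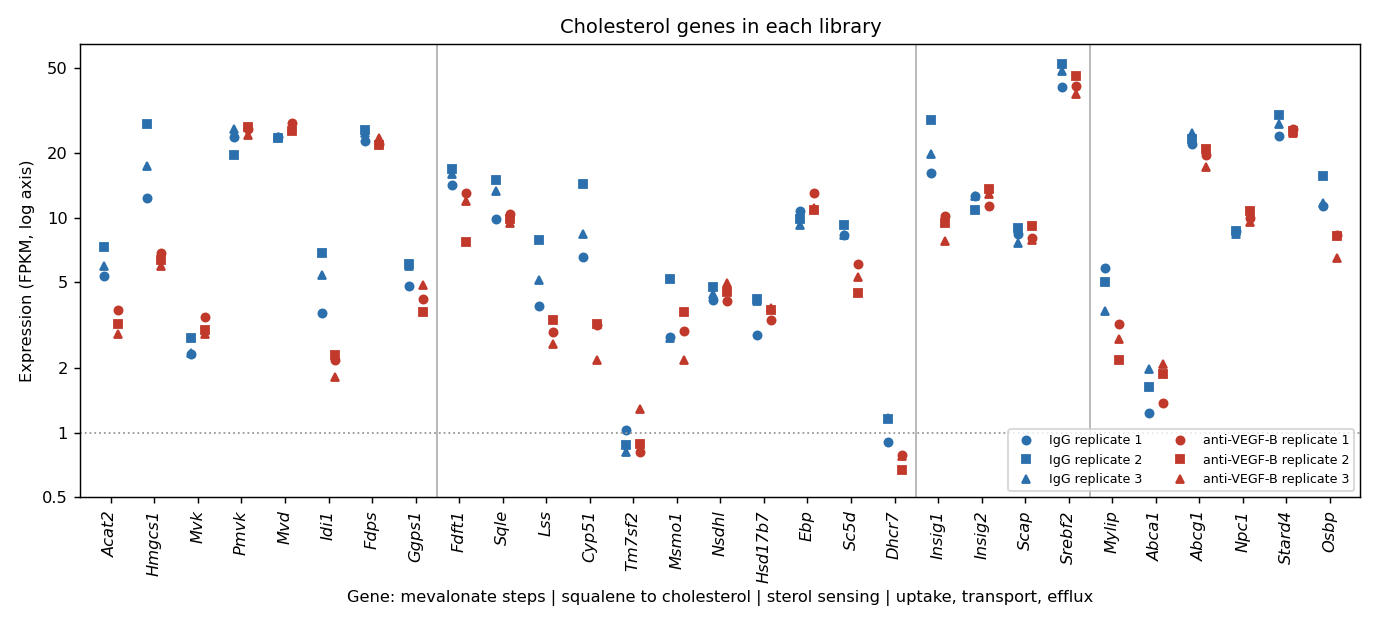
FPKM of the 29 genes in each of the 6 libraries, on a log axis and in pathway order, with IgG in blue and anti–VEGF-B in red and a symbol for each replicate number. The dotted line marks 1 FPKM. Hmgcs1, Idi1, Cyp51 and Insig1 show a gap between the groups and a wide IgG group led by replicate 2 (Hmgcs1 from 12.3 to 27.3 FPKM), while Pmvk, Fdps and Nsdhl stay level.

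In the mevalonate steps, 3 of 8 genes fell, the pair at the start of the pathway and the isomerase gene Idi1, and the genes between them did not pass. The first is Acat2 (chr17:12942890-12960747 of GRCm38, minus strand), whose thiolase joins acetyl-CoA units. It stood at 3.71, 3.21 and 2.86 FPKM in the anti–VEGF-B libraries and at 5.33, 7.32 and 5.98 in the IgG libraries. The groups did not overlap, and the log2 fold change was -0.76 ± 0.128 (SE, adjusted p = 0.00714, limma). Its close copy Acat3 on the same chromosome had between 0.0709 and 0.719 FPKM, and reads could have been split between them, so the value of Acat2 is uncertain to that extent.

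Hmgcs1 (chr13:119690379-119708260, plus strand) encodes the cytosolic HMG-CoA synthase, which makes the precursor of mevalonate. Its FPKM were 6.89, 6.34 and 5.97 in anti–VEGF-B libraries and 12.3, 27.3 and 17.5 in IgG libraries. The anti–VEGF-B libraries were within 1.15-fold of each other, whereas the IgG libraries spanned 2.21-fold, with replicate 2 highest. This gave a log2 fold change of -1.37 ± 0.223 (SE, adjusted p = 0.00670, limma), which shrank to -1.09 without IgG replicate 2 and stayed past the threshold.

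The kinases and the decarboxylase that follow did not pass the test. Mvk, the mevalonate kinase gene, had 3.44, 3.00 and 2.88 FPKM with anti–VEGF-B against 2.33, 2.75 and 2.35 with IgG, so that its groups were apart in the direction opposite to Hmgcs1. Its log2 fold change of 0.24 (95% interval 0.00089 to 0.48) had an adjusted p of 0.115 from limma. Mvd, the diphosphomevalonate decarboxylase gene, was likewise above IgG in all libraries, at 26.5 ± 1.25 against 23.7 ± 0.140 FPKM (SD, n = 3 each), with a log2 fold change of 0.15 and an adjusted p of 0.140 from limma. Pmvk, the phosphomevalonate kinase gene, had 25.5 ± 1.13 and 23.1 ± 3.17 FPKM, with overlapping groups and an interval of -0.084 to 0.38 for the log2 fold change.

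Idi1 (chr13:8885501-8892451, plus strand), whose isomerase interconverts both isoprenoid units, was the third of the falls. It had 2.17, 2.29 and 1.82 FPKM with anti–VEGF-B against 3.61, 6.85 and 5.44 with IgG. All IgG libraries were above all anti–VEGF-B libraries, with a log2 fold change of -0.995 ± 0.179 (SE, adjusted p = 0.00810, limma). Fdps, which encodes farnesyl diphosphate synthase and acts next, was far more abundant and nearly level, at 22.5 ± 0.923 and 24.5 ± 1.44 FPKM (log2 fold change -0.12, 95% interval -0.29 to 0.060, adjusted p = 0.278 from limma). Ggps1, the geranylgeranyl diphosphate synthase gene at the branch towards protein prenylation, had 4.23 ± 0.598 and 5.62 ± 0.703 FPKM with overlapping groups (log2 fold change -0.34, adjusted p = 0.0638 from limma). It passed once IgG replicate 1 was left out, at -0.43.

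From squalene to cholesterol, 4 of 9 tested genes fell, again with genes between them that did not pass. Fdft1 (chr14:63145150-63179578, minus strand) encodes squalene synthase, the first enzyme committed to sterols. Its FPKM were 13.0, 7.71 and 12.0 with anti–VEGF-B and 14.1, 16.9 and 15.9 with IgG. The groups were apart by little, and anti–VEGF-B replicate 2 was lowest. The log2 fold change was -0.51 ± 0.165 (SE) with an adjusted p of 0.0460 in limma, and this call was lost under 12 of 16 alternatives, including every fit without 1 library except that without anti–VEGF-B replicate 1. Without anti–VEGF-B replicate 2 the value was -0.30. The gene overlaps Ctsb in the annotation.

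Sqle, which encodes squalene epoxidase, had 10.4, 9.82 and 9.41 FPKM with anti–VEGF-B against 9.90, 14.9 and 13.3 with IgG. IgG replicate 1 lay among the anti–VEGF-B libraries. The log2 fold change of -0.32 did not pass (adjusted p = 0.102 from limma), but did so without IgG replicate 1 (-0.47).

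Lss (chr10:76531588-76557138, plus strand), the lanosterol synthase gene, had 2.93, 3.34 and 2.58 FPKM with anti–VEGF-B against 3.87, 7.88 and 5.16 with IgG. IgG replicate 2 was again the highest, and the groups were apart. The fall was 0.71 ± 0.196 on the log2 scale (SE, adjusted p = 0.0275, limma).

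Cyp51 (chr5:4081145-4104746, minus strand), whose enzyme removes a methyl group from lanosterol, had the largest fall of the 27 genes. It stood at 3.16, 3.20 and 2.19 FPKM with anti–VEGF-B and at 6.54, 14.3 and 8.43 with IgG. On the log2 scale the change was -1.43 ± 0.233 (SE, adjusted p = 0.00670, limma), with a mean FPKM in IgG 3.42 times that in anti–VEGF-B. Without IgG replicate 2 it was -1.14.

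The next tested genes did not pass. Msmo1, the methylsterol monooxygenase gene, had 2.92 ± 0.727 and 3.57 ± 1.38 FPKM (log2 fold change -0.20, 95% interval -0.66 to 0.27), and the sign turned without IgG replicate 2 (0.041). Nsdhl, a sterol dehydrogenase gene, had 4.52 ± 0.425 and 4.45 ± 0.311 FPKM, and Hsd17b7, whose reductase acts with it, 3.62 ± 0.252 and 3.72 ± 0.749 FPKM. Their intervals ran from -0.21 to 0.25 and from -0.32 to 0.28 on the log2 scale. Ebp, the sterol isomerase gene, was above IgG in every library, at 13.0, 10.9 and 11.2 FPKM against 10.7, 9.91 and 9.29, with a log2 fold change of 0.21 and an adjusted p of 0.130 from limma.

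Sc5d (chr9:42251595-42264256, minus strand), which encodes the sterol desaturase near the end of the pathway, fell. Its FPKM were 6.11, 4.47 and 5.27 with anti–VEGF-B and 8.32, 9.30 and 8.32 with IgG. Here the IgG libraries were close together, and replicate 2 decided little (log2 fold change -0.63 ± 0.114, SE, adjusted p = 0.00858 in limma, and -0.58 without that replicate). Of the untested enzymes, Dhcr7, which completes cholesterol, had 0.746 ± 0.0659 FPKM with anti–VEGF-B against 1.07 ± 0.150 with IgG, and every anti–VEGF-B library was under every IgG library. In the fit without the filter on low values, its log2 fold change was -0.25 with an adjusted p of 0.0776 from limma. The sterol reductase gene Tm7sf2 had 0.996 ± 0.252 and 0.906 ± 0.112 FPKM with overlapping groups.

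**Figure D2:**
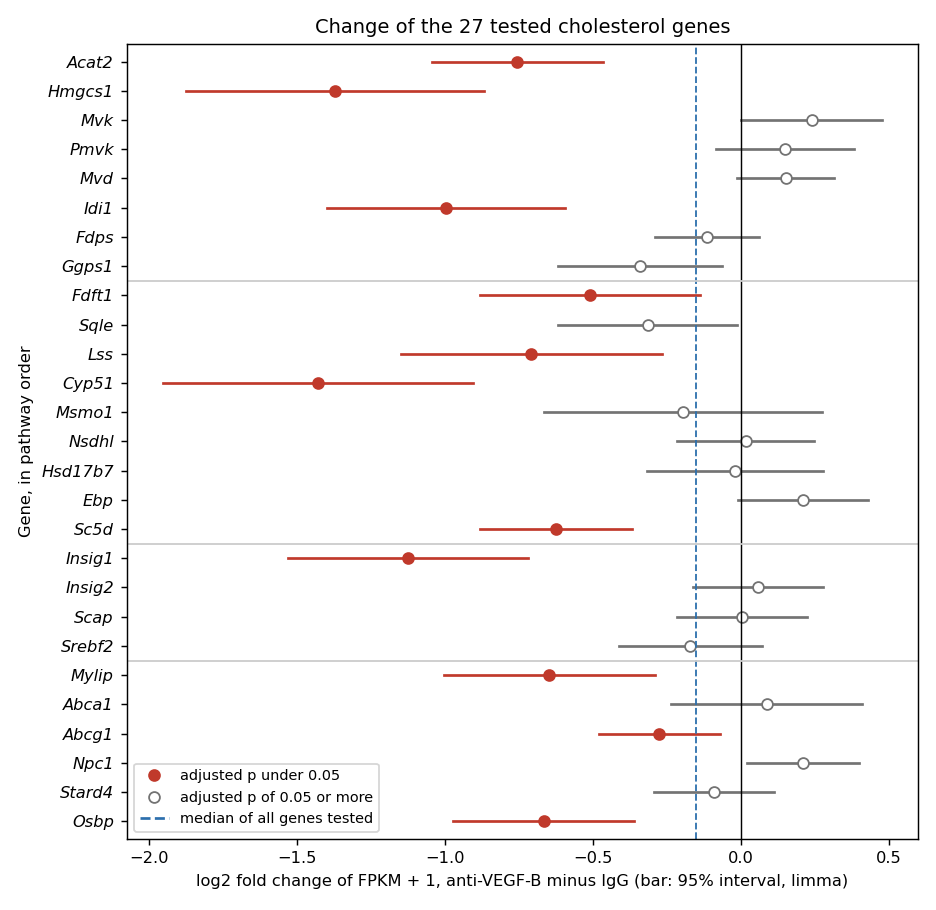
log2 fold change of FPKM + 1 for the 27 tested genes in pathway order, with 95% intervals from limma, filled red where the adjusted p was under 0.05. The dashed line is the median of all genes at -0.15. Genes well below it alternate with genes at or above 0 along the pathway, from Hmgcs1 at -1.37 to Mvk at 0.24.

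Among the sensing genes, Insig1 fell and its paralog Insig2 did not. Insig1 (chr5:28071363-28078662, plus strand) had 10.1, 9.45 and 7.81 FPKM with anti–VEGF-B against 16.2, 28.5 and 19.9 with IgG. Its change was -1.12 ± 0.180 on the log2 scale (SE, adjusted p = 0.00640, limma), and -0.91 without IgG replicate 2. Insig1 is itself a known SREBP target, as are most enzymes of synthesis. Insig2 had 11.3, 13.6 and 12.8 FPKM with anti–VEGF-B against 12.6, 10.9 and 12.6 with IgG. Its groups overlapped, and the 95% interval of its log2 fold change ran from -0.16 to 0.28.

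The genes of SREBP-2 and its escort did not pass. Srebf2, which encodes SREBP-2, was the most abundant of the 29 genes, at 41.1, 45.7 and 37.6 FPKM with anti–VEGF-B against 40.6, 51.8 and 48.4 with IgG. The groups overlapped, with a log2 fold change of -0.17 (95% interval -0.41 to 0.070, adjusted p = 0.244 from limma), close to the median gene. Scap stood at 8.05, 9.18 and 7.88 FPKM against 8.44, 8.94 and 7.66, with a log2 fold change of 0.0036 (95% interval -0.22 to 0.22). RNA levels do not show how much SREBP-2 was cut.

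Of the 6 genes of uptake, transport and efflux, 3 fell. Mylip (chr13:45389742-45412022, plus strand) encodes a ubiquitin ligase that marks lipoprotein receptors for breakdown, so that it acts against uptake. It had 3.22, 2.19 and 2.73 FPKM with anti–VEGF-B against 5.81, 5.05 and 3.68 with IgG, and the groups were apart. The difference was -0.65 ± 0.158 on the log2 scale (SE, adjusted p = 0.0186, limma). The threshold was missed without anti–VEGF-B replicate 2 (-0.54), anti–VEGF-B replicate 3 (-0.66) or IgG replicate 2 (-0.61), and after quantile normalization (-0.41), cyclic loess normalization (-0.42) and median centring (-0.47).

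Osbp (chr19:11965844-11994105, minus strand), whose protein moves sterol from the endoplasmic reticulum to the Golgi, was the most stable of these falls. Its FPKM were 8.31, 8.21 and 6.53 with anti–VEGF-B and 11.3, 15.6 and 11.7 with IgG. Every IgG library was above every anti–VEGF-B library, with a change of -0.67 ± 0.136 on the log2 scale (SE, adjusted p = 0.0111, limma), and of -0.53 without IgG replicate 2. Stard4, another sterol carrier, had 25.9, 25.3 and 24.8 FPKM with anti–VEGF-B, inside the IgG range of 24.1, 29.9 and 27.4, and a log2 fold change of -0.091 (95% interval -0.29 to 0.11).

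Of the exporter genes, Abcg1 passed and Abca1 did not, and the difference between them was not tested. Abcg1 (chr17:31057698-31115777, plus strand) had 19.5, 20.8 and 17.2 FPKM with anti–VEGF-B against 22.2, 23.2 and 24.8 with IgG, a change of -0.28 ± 0.0907 on the log2 scale (SE, adjusted p = 0.0484, limma). This call was marginal. It was lost under 14 of 16 alternatives, among them every other scaling (-0.052 after median centring) and the fits without any 1 library except anti–VEGF-B replicate 2. Abca1 was low, at 1.37, 1.87 and 2.09 FPKM against 1.23, 1.63 and 1.99, with overlapping groups and an interval of -0.24 to 0.41. Abca1, Abcg1 and Mylip are all known targets of LXR.

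Npc1, which lets cholesterol out of the lysosome, was above IgG in every library, at 9.99, 10.7 and 9.58 FPKM against 8.67, 8.69 and 8.42. The log2 fold change was 0.21 (95% interval 0.020 to 0.40), with an adjusted p of 0.0878 from limma. It overlaps Rmc1 in the annotation. Without IgG replicate 3, the library with the high Lyz2, the log2 fold changes of Mylip, Osbp and Abcg1 were -0.80, -0.72 and -0.23.

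The scaling between libraries decided which genes could be called higher, but not the deepest falls. After quantile normalization 7 members were called lower and 3 higher, where 10.4% and 9.98% of all genes were. After median centring the members were 8 and 4, and the shares of all genes 10.4% and 16.1%. The genes higher after median centring were Mvk (0.41), Mvd (0.38), Ebp (0.42) and Npc1 (0.42). Lss lost its call without anti–VEGF-B replicate 1 (-0.71) or 3 (-0.64) and under quantile and cyclic loess normalization, and its value was -0.48 without IgG replicate 2, with adjusted p between 0.0119 and 0.145 over its alternatives. Acat2, Hmgcs1, Idi1, Cyp51, Sc5d, Insig1 and Osbp had an adjusted p under 0.05 in every alternative in which they were tested except the fit with no moderation of the variance, where their adjusted p ran from 0.0733 to 0.0899 and 6 of all 8816 genes were called lower. In the deposited values, the median log2 fold change was -0.32 for the 17 enzymes and -0.18 for the 6 genes of uptake, transport and efflux, beside -0.15 for all genes. After median centring these medians were -0.10, 0.041 and 0.038. Both groups held genes that fell and genes at or above the median, and a difference between them was not tested.

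**Figure D3:**
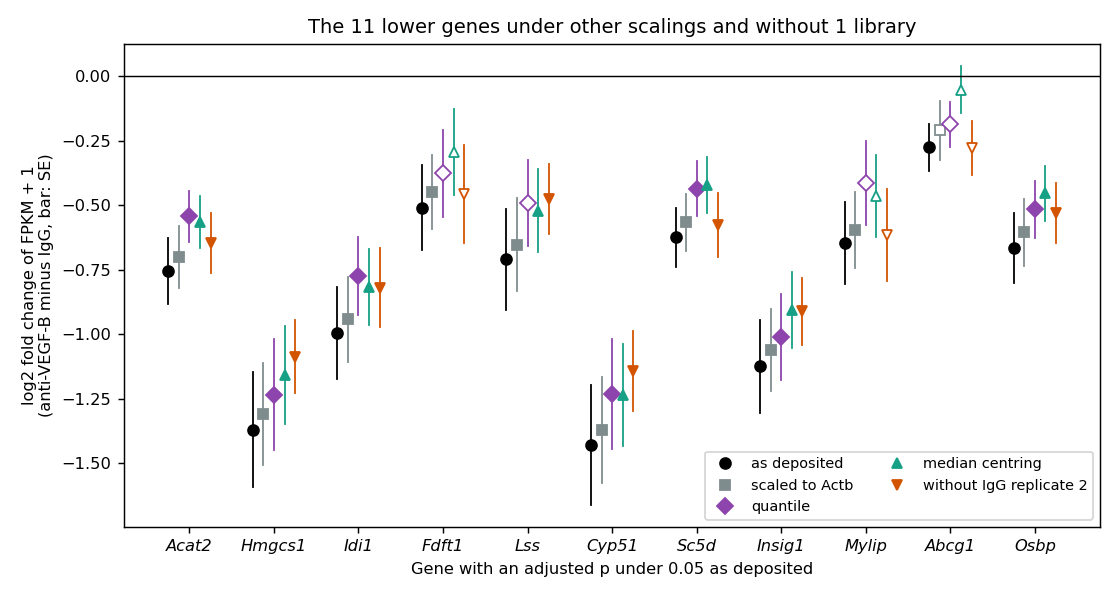
log2 fold change (± SE) of the 11 called genes in the deposited values, under 3 other scalings and without IgG replicate 2, with open symbols where the adjusted p was 0.05 or more. Hmgcs1, Cyp51, Insig1, Idi1, Acat2, Sc5d and Osbp stay filled throughout, while Fdft1, Lss, Mylip and Abcg1 do not.

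Ratios of genes in the same library do not change when each library is multiplied by 1 factor, as in scaling to Actb, whereas quantile and cyclic loess normalization can change them. They were taken from the deposited values. The pairs below were chosen after the values were seen and were not tested. Insig1 had 0.894, 0.695 and 0.608 times the FPKM of Insig2 with anti–VEGF-B, and 1.28, 2.61 and 1.58 times with IgG. Insig1 was thus the lesser paralog in all anti–VEGF-B libraries and the greater in all IgG libraries. The ratio of Hmgcs1 to Mvd was 0.249, 0.251 and 0.225 with anti–VEGF-B and 0.519, 1.16 and 0.732 with IgG. Idi1 had 0.0980, 0.105 and 0.0772 times the FPKM of Fdps, its successor in the pathway, with anti–VEGF-B and 0.158, 0.267 and 0.219 times with IgG. The ratio of Cyp51 to Ebp was 0.244 ± 0.0488 against 0.987 ± 0.421 (SD, n = 3 each). In these 4 pairs the groups did not overlap, whereas that of Abcg1 to Abca1 did, at 11.2 ± 3.01 against 14.9 ± 2.82.

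**Figure D4:**
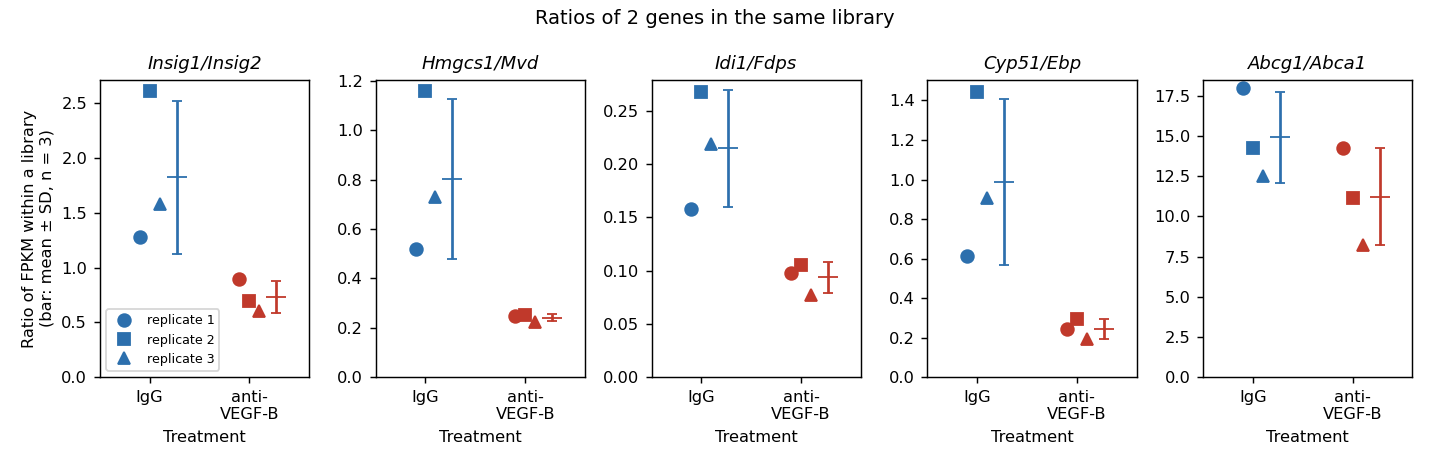
Ratio of the FPKM of a pair of genes within each library, with IgG in blue and anti–VEGF-B in red and bars for the mean ± SD of 3 libraries. The axes start at 0. Insig1/Insig2, Hmgcs1/Mvd, Idi1/Fdps and Cyp51/Ebp are lower in all anti–VEGF-B libraries and spread widely among the IgG libraries, while Abcg1/Abca1 overlaps between the groups.

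The order of levels shifted with these changes. With IgG, Insig1 and Hmgcs1 ranked 7 and 8 of the 29 genes by mean FPKM, and with anti–VEGF-B 12 and 15. Cyp51 went from rank 14 to 24. Srebf2 ranked 1 in both groups. Many neighbours in this order, such as Mvd, Abcg1 and Pmvk between 23.1 and 23.7 FPKM with IgG, did not differ beyond their spread.

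The spread among the IgG libraries differed between the genes that fell. The highest IgG value was 2.21 times the lowest for Hmgcs1, 2.19 times for Cyp51, 2.04 times for Lss, 1.90 times for Idi1 and 1.76 times for Insig1, with replicate 2 highest each time, but 1.37 times for Acat2 and 1.12 times for Sc5d. Il2ra, the IL-2 receptor alpha chain gene that rises with T cell activation, was also highest in IgG replicate 2. It had 94.9, 150 and 106 FPKM with IgG and 65.7, 57.5 and 51.8 with anti–VEGF-B (log2 fold change -0.97, adjusted p = 0.00665 from limma). Its part in the changes of the cholesterol genes was not tested. In bulk RNA, fewer cells with a high level and less RNA in each cell cannot be told apart.

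Another 59 genes of the same pathways were looked up, of which 47 were tested. With anti–VEGF-B 11 were lower (23.4%, where 23.8% of all genes were lower) and 2 higher (4.26% against 4.87%), so their shares were close to those of all genes, and 6 were lower without anti–VEGF-B replicate 3. Their median log2 fold change was -0.18. Of 15 further genes of synthesis and SREBP processing, 4 were lower (26.7%) and 1 higher (6.67%), beside the same 23.8% and 4.87% of all genes. Erlin1 (-0.57) and Erlin2 (-0.70), whose proteins bind cholesterol in the endoplasmic reticulum and restrain SREBP, both fell (adjusted p of 0.00756 and 0.00872 from limma). Erlin1 had 1.27, 1.10 and 1.23 FPKM with anti–VEGF-B against 2.097, 2.50 and 2.24 with IgG. Erlin2 had 1.42, 1.32 and 1.22 FPKM with anti–VEGF-B against 2.33, 3.53 and 2.55 with IgG. Pgrmc1, a heme protein that binds CYP51 and related enzymes, also fell, from 16.4, 19.2 and 15.5 FPKM with IgG to 12.3, 11.5 and 11.2 with anti–VEGF-B (-0.51, adjusted p = 0.00936 from limma). In none of the 3 genes did the groups overlap.

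Of 10 genes of the isoprenoid branches, 2 were lower (20%), no larger a share than the 23.8% of all genes. They included Zmpste24 (-0.57, adjusted p = 0.0126 from limma), whose protease trims farnesylated proteins. It had 1.53, 1.68 and 1.59 FPKM with anti–VEGF-B against 2.52, 3.57 and 2.61 with IgG. Of 22 further genes of sterol transport, storage and oxysterols, 5 were lower (22.7%) and 1 higher (4.55%), close to the 23.8% and 4.87% of all genes. Gramd1b, which carries cholesterol from the plasma membrane to the endoplasmic reticulum, went from 4.69, 5.32 and 4.73 FPKM with IgG to 2.86, 3.26 and 2.63 with anti–VEGF-B (-0.60 on the log2 scale, adjusted p = 0.00768 from limma). Scarb1, the receptor for high-density lipoprotein, fell by 0.52 on the log2 scale (adjusted p = 0.0134), from 3.98, 5.04 and 4.06 FPKM with IgG to 3.00, 2.57 and 2.62 with anti–VEGF-B. The groups were apart for Zmpste24, Gramd1b and Scarb1, as they were in this direction for 38.5% of all genes. The 2 genes that were higher, named here after their values were seen, were Npc2, the lysosomal partner of NPC1, at 251 ± 9.04 against 210 ± 7.22 FPKM (0.25, adjusted p = 0.0272), and Por, which passes electrons to CYP51 and squalene epoxidase (0.35, adjusted p = 0.0257). Neither call held when IgG replicate 2, IgG replicate 3 or anti–VEGF-B replicate 3 was left out, where the count was 0, and the count was 1 when anti–VEGF-B replicate 2 was left out.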

How the data were processed

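RNA-Seq of 3 anti–VEGF-B and 3 IgG libraries was analysed. According to the methods, the authors aligned reads of stranded libraries to GRCm38 with hisat2 and quantified transcripts with StringTie and Ballgown. The authors deposited 1 table of values per gene, treated here as FPKM since the values are not whole numbers, although the table is named as raw data. No scaling between libraries, filter or strand setting of the counting is given in the sources used here. The FPKM summed to between 260058 and 276622 per library. The low values were searched for steps of single reads, but no more than 1.38% of the genes with values below 0.3 FPKM had 1 common ratio between any pair of libraries, so the depth is unknown.

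Genes averaging 1 FPKM or more were tested on log2(FPKM + 1) by limma 3.58.1 in R 4.3.3 (empirical Bayes with trend, two-sided, no covariate), with Benjamini-Hochberg adjustment over all genes. Markers of T cells and other spleen cells were listed as a check of the labels. The members and lists were chosen with earlier results of these data known. Called members were given with the value of each library, as were sensing, uptake, transport and efflux genes, and related genes where they passed, up to the 6 with the lowest p. Some values of genes that did not pass and the ratios were added after the values were seen. The method was tested on simulated data, drawn independently for each gene with no shift between whole libraries. That simulation therefore cannot show how such shifts affect the calls. The alternatives changed the scaling, the pseudocount, the filter, the moderation, the threshold, the replicate block and the libraries included. Overlapping genes were taken from RefSeq annotation of GRCm38.p6.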

Additional observations from a re-analysis of the deposited data

How the results depend on the processing

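The counts of members called lower and higher were 11 and 0 in the deposited values. They were 7 and 3 under both quantile and cyclic loess normalization, 8 and 4 after median centring, 10 and 0 when scaled to Actb (14.8% of all genes lower), 5 and 0 with a mean of at least 5 FPKM (17 members tested, 20.1% of all genes lower), 0 and 0 with no moderation of the variance (9 and 3 at an unadjusted p under 0.05), and 7 to 11 and 0 in the fits without 1 library, with the 7 reached without anti–VEGF-B replicate 3. The related genes called lower were 11, and 6 under quantile normalization, 7 under cyclic loess as under median centring, 4 with a mean of at least 5 FPKM, 0 with no moderation (14 at an unadjusted p), 6 at an unadjusted p under 0.05 with a log2 fold change over 0.5 (11.3% of all genes), and 6 to 13 without 1 library. The related genes called higher were 2 (4.87% of all genes). They were 5, 8 and 5 after quantile normalization, median centring and cyclic loess, where 9.98%, 16.1% and 9.66% of all genes were. When scaled to Actb they were 1 (4.14% of all genes). With no moderation they were 0 (5 at an unadjusted p under 0.05, where 7.89% of all genes were). At the unadjusted limits they were 0 (1.40% of all genes), and without 1 library 0 to 3 (1.84% to 4.48% of all genes). The median log2 fold change of the enzymes was -0.13 under quantile as under cyclic loess normalization, -0.10 after median centring and -0.43 to -0.20 without 1 library. That of the uptake, transport and efflux genes was 0.041 after median centring and -0.24 to -0.14 without 1 library. The cause of these moves was not tested. Under the stricter filter Acat2, Idi1, Lss and Mylip were no longer tested, while Fdft1 and Abcg1 were tested but did not pass.

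The sign of 9 members that were not called turned in some alternatives. After median centring Fdps was at 0.11, Hsd17b7 at 0.17, Srebf2 at 0.058 and Stard4 at 0.13. After quantile normalization and cyclic loess Msmo1 was at 0.030 and 0.029 and Hsd17b7 at 0.21 and 0.20, and when scaled to Actb Hsd17b7 was at 0.036. Without 1 library Msmo1 ran from -0.32 to 0.041, Nsdhl from -0.040 to 0.071, Hsd17b7 from -0.16 to 0.057, Insig2 from -0.0072 to 0.12, Scap from -0.058 to 0.049 and Abca1 from -0.023 to 0.20. In all, 346 of the values of single members kept their direction and side of the threshold, 45 no longer passed and 12 newly passed.

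Replicate numbers are shared by the groups but nothing says that they pair libraries, and the deviations of same-numbered libraries correlated at -0.030, 0.11 and 0.089 over genes. With the replicate block 9 members were lower and 0 higher (23.9% and 5.32% of all genes, and Fdft1 and Abcg1 did not pass), 11 related genes were lower and 2 higher, and the medians were -0.32 and -0.18.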
